A study of Mus musculus with 12 samples.

Results

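Transforming growth factor beta (TGF-beta) and bone morphogenetic protein (BMP) signalling was followed through 10 genes in bulk RNA-seq of sorted mouse liver cells. The genes were taken by symbol from the count table: the ligands Tgfb1, Tgfb2, Tgfb3, Bmp2 and Bmp4, the receptors Tgfbr1 and Tgfbr2, the inhibitory Smads Smad6 and Smad7, and the BMP target Id1. All 10 were present among the 53599 genes of the table, and all 10 were among the 16210 genes with enough counts to be tested. The labels give the genotype as WT. AAV8-TBG-Cre, a virus with a hepatocyte promoter driving Cre, was injected to trace hepatocytes, and the sort used EGFP. The reporter allele behind the EGFP is not given in the sources used here. The diet, given from 1 week after the virus and for 8 weeks in every group, held 0.1% DDC, a porphyrinogenic compound that injures bile ducts. The early group was EGFP+ Cd24- Epcam- cells, the intermediate group EGFP+ Cd24+ Epcam- cells and the full group EGFP+ Cd24+ Epcam+ cells, so all 3 carried the hepatocyte mark. Biliary epithelial cells (BEC) were EGFP- Epcam+ cells. They lacked the hepatocyte mark, so BEC against full is a comparison of groups and not a stage of conversion. It is counted among the 3 steps below only for brevity. Every group had 3 replicates. No group of unfed mice was analysed here, and the age of the animals was not given in the sources used here.

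TGF-beta and BMP ligands bind paired type I and type II receptor kinases, which phosphorylate receptor-regulated Smads. TGF-beta acts mainly through Smad2 and Smad3, and BMPs act through Smad1, Smad5 and Smad9. Smad4 joins both branches, and Smad6 and Smad7 are feedback inhibitors. In the liver, TGF-beta is known for its part in fibrosis and bile duct formation, and BMP signalling in hepatocytes is known for its control of the iron hormone hepcidin.

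Total counts ran from 15112893 to 19731887 per library, and levels are given as CPM, the count relative to the library size after scaling by the TMM method. Of the sorted surface proteins' own transcripts, Epcam had means of 0.592 CPM in early, 18.8 in intermediate, 254 in full and 866 in BEC, so it was above the early level in the group sorted as Epcam-. Cd24a had means of 3.20, 444, 1074 and 1073 CPM. The hepatocyte marker Alb had a mean of 73507 CPM in early, 12631 in intermediate, 2582 in full and 1653 in BEC. The biliary marker Krt19 had means of 0.111, 2.21, 118 and 593 CPM. The share of mitochondrial counts was 5.45% to 11.4% in early and 2.196% to 4.75% in the other groups. The early library with 11.4% was replicate 2. Labels do not say whether replicates came from separate mice, so p-values measure the spread between these samples.

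Markers of other cell types were low but not absent. The 10 stellate cell and fibroblast markers summed to 98.7 to 284 CPM in early, 61.5 to 172 in intermediate, 46.2 to 76.9 in full and 52.4 to 91.1 in BEC, with Reln, Col3a1 and Col1a1 the most abundant. None of its defining markers Lrat, Pdgfrb, Col1a1 and Dcn was at 0. The 9 endothelial markers summed to 16.8 to 31.7, 14.0 to 28.8, 8.04 to 12.6 and 5.01 to 14.7 CPM in the same order. The 9 macrophage markers summed to 24.0 to 26.0, 30.4 to 38.04, 65.8 to 92.7 and 132 to 157 CPM. That list was led in BEC by Csf1r with a mean of 127 CPM, while Adgre1 and C1qa had means of 0.522 and 2.41 CPM there. Cd68, of the same list, had means of 14.0 CPM in early, 2.74 in intermediate, 1.62 in full and 3.46 in BEC. Of the 8 macrophage markers tested, 1 was called higher and 1 lower in both full and BEC against early. Of all genes, 39.1% and 40.0% were called higher and 32.1% and 33.0% lower in these comparisons. The 4 platelet markers, of which Ppbp was at 0 in all but the BEC group, summed to 2.59 to 3.91, 3.29 to 4.87, 4.68 to 5.45 and 5.92 to 7.04 CPM. The 4 mesothelial markers reached 188 to 214 CPM in BEC, almost all of it Msln, against 1.32 to 30.4 CPM in the other groups. The neutrophil, B cell, and T and NK cell lists summed to at most 0.340, 0.289 and 0.233 CPM in any library. In bulk samples, fewer cells of a type and less RNA per cell cannot be told apart. The summed stellate level was lower, and the summed macrophage level higher, in full and BEC than in early, alongside several changes below, and their part in those changes was not tested.

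Promoter sequences of 300 bases around the annotated start were found in RefSeq for 6 of the 10 genes. The 4 shown are those of Tgfb1 and Tgfb2, which moved together, Bmp4, which departed from them, and Smad6, an inhibitor whose own gene is a known BMP target. They are given 5′ to 3′ on the gene's strand with the coordinates of GRCm38.p6, and capitals mark matches on either strand to the Smad box GTCT.
Tgfb1, chr7:25686752-25687051, plus strand: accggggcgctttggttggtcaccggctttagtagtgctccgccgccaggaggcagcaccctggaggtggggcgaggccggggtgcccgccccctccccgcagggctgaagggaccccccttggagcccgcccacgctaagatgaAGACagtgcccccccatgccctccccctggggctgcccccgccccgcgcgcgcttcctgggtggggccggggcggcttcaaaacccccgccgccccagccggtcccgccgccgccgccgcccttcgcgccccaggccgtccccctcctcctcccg
Tgfb2, chr1:186705940-186706239, minus strand: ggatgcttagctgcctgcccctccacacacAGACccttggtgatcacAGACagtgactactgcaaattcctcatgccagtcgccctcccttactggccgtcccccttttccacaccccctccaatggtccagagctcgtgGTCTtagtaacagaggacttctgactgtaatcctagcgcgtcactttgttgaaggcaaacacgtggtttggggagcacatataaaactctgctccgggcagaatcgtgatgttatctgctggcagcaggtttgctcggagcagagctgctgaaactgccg
Bmp4, chr14:46390620-46390919, minus strand: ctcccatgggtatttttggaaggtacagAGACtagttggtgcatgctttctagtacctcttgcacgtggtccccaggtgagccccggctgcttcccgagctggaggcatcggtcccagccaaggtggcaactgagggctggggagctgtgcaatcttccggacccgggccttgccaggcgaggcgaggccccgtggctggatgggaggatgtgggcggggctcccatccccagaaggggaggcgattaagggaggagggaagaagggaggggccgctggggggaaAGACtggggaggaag
Smad6, chr9:64022010-64022309, minus strand: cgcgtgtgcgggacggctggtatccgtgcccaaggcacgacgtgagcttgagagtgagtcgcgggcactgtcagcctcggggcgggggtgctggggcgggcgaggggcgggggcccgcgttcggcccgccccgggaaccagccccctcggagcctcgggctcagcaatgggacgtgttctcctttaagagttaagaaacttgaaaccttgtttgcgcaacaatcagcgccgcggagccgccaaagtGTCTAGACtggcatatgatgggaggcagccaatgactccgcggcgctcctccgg
The Smad box was matched 1 time for Tgfb1, 3 times for Tgfb2, 2 times for Bmp4 and 2 times for Smad6, and 88.0% of the 32851 promoters of this length hold at least 1 match. The 2 matches of Smad6, on opposite strands, lie side by side and form the palindrome GTCTAGAC, which 0.213% of the promoters hold. None of these 4 windows held the GC-rich Smad site GGCGCC or the TEAD site GGAATG on either strand, which occur in 11.9% and 14.7% of all promoters. Of the promoters not shown, 1 of the 2 of Tgfbr1 held GGCGCC 1 time. These matches describe letters in a window, and binding was not measured.

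Every one of the 10 genes differed among the 4 groups (edgeR F test, adjusted p between 4.55e-10 for Tgfb3 and 0.0018 for Bmp2), where 75.6% of all genes tested did. Between intermediate and early, 7 of the 10 were called at an adjusted p under 0.05, against 54.4% of all genes. Of these, 5 were higher (28.7% of all genes) and 2 lower (25.7%). Replicate ranges of the 2 groups did not overlap for 8 of the 10, against 58.7% of all genes. From intermediate to full, 8 were called (40.7% of all genes), 6 higher (20.8%) and 2 lower (19.8%), and ranges did not overlap for 8 (55.0%). Between BEC and full, 4 were called (21.3% of all genes), 1 higher in BEC (10.7%) and 3 lower (10.6%), and 5 had ranges that did not overlap (39.6%). The median log2 fold change of the 10 was 0.95, 0.53 and 0.06 at the 3 steps, and that of all genes tested was 0.06, 0.01 and 0.00. The 10 were chosen with earlier results of these data known, so these shares and medians are no test of the set.

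**Figure D1:**
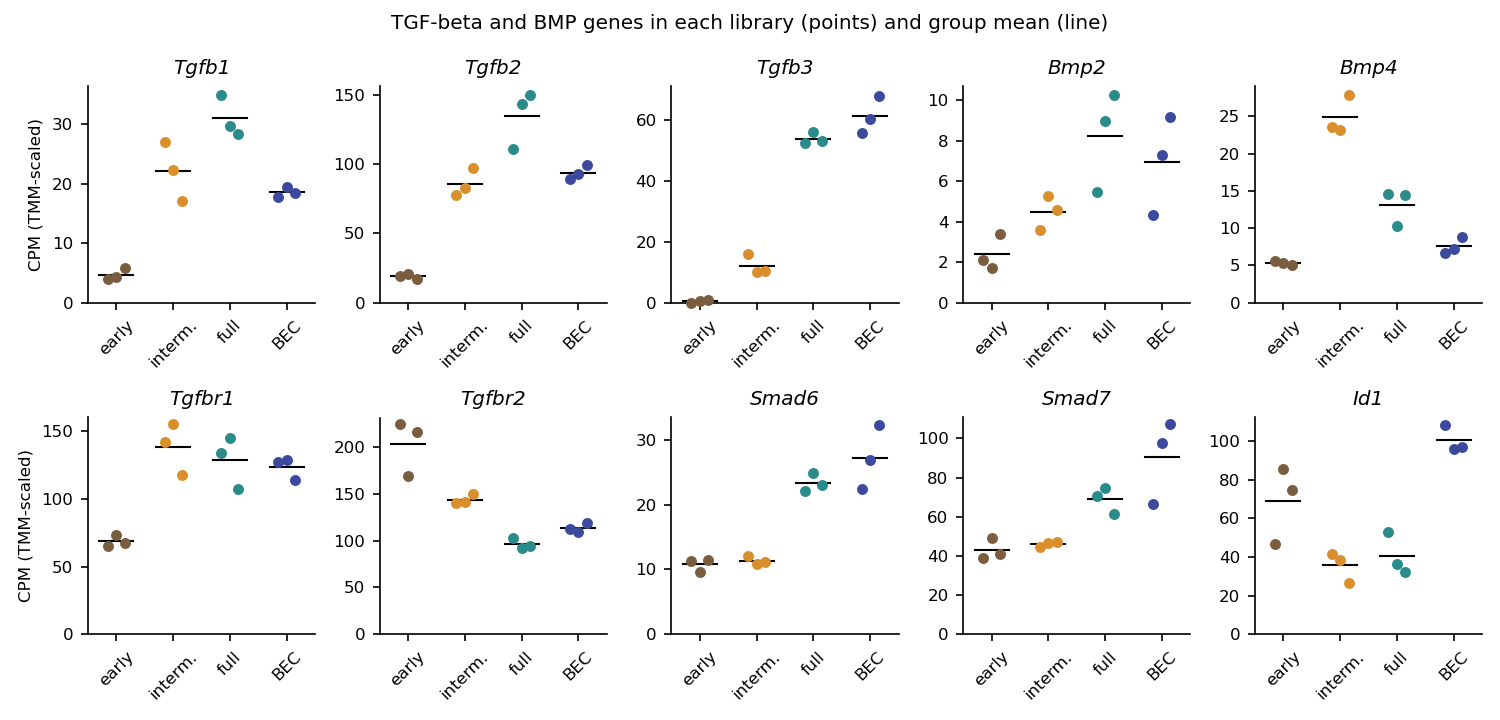
Level of each of the 10 genes (y axis, CPM on TMM-scaled library sizes, linear from 0) in the 3 libraries of each group (points) with the group mean (line). Tgfb1, Tgfb2 and Tgfb3 were lowest in early, Bmp4 peaked in intermediate, and Id1 was lowest in intermediate and full.

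The 3 TGF-beta ligands were all higher in intermediate than in early cells. Tgfb1 encodes the isoform best known from fibrosis. It was at 4.03, 4.37 and 5.83 CPM in early, 27.1, 22.3 and 17.1 in intermediate, 34.9, 29.8 and 28.3 in full, and 17.8, 19.5 and 18.5 in BEC. The early libraries lay below all others, and the full libraries above all others. Tgfb1 rose at the first step (by 2.22 on the log2 scale, SE 0.19, edgeR adjusted p 3.66e-07) and again at the second (0.49, SE 0.16, edgeR adjusted p 0.0274). It was lower in BEC than in full (-0.74, SE 0.16, edgeR adjusted p 0.0044). The second rise was not called without intermediate replicate 2 (0.48, edgeR adjusted p 0.0721), intermediate replicate 3 (0.32, adjusted p 0.132), full replicate 1 (0.39, adjusted p 0.111) or full replicate 2 (0.51, adjusted p 0.0545). In the order of levels, BEC and intermediate stood next to each other and were not called different (-0.25, edgeR adjusted p 0.217), except without intermediate replicate 3 (-0.41, adjusted p 0.0432).

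Tgfb2, the ligand with the most counts of the 3, followed the same course. It was at 19.6, 20.7 and 17.4 CPM in early, 78.0, 82.4 and 97.0 in intermediate, 110.5, 144 and 149.6 in full, and 89.5, 92.5 and 99.5 in BEC. Full libraries were above all others, and the intermediate and BEC ranges overlapped. It rose by 2.16 on the log2 scale at the first step (SE 0.13, edgeR adjusted p 1.93e-08) and by 0.65 at the second (SE 0.12, edgeR adjusted p 0.000689). BEC stood below full (-0.52, SE 0.12, edgeR adjusted p 0.00608). Between BEC and intermediate the difference was 0.13 (edgeR adjusted p 0.394), and only scaling by total counts gave a call (0.33, adjusted p 0.0296).

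Tgfb3 had the largest log2 fold changes of the 10 at the first 2 steps. Early libraries held 1, 6 and 10 counts, or 0.0791, 0.546 and 0.809 CPM, of which the first lies under the floor of 3 counts used for detection. Levels were 15.9, 10.1 and 10.3 CPM in intermediate, 52.6, 56.0 and 53.3 in full, and 55.9, 60.4 and 67.9 in BEC. No library of early overlapped any other group, and neither did intermediate, while full and BEC touched at their edges. The fitted log2 fold change was 4.65 at the first step (SE 0.34, edgeR adjusted p 1.07e-07) and 2.16 at the second (SE 0.20, edgeR adjusted p 1.84e-06). The first value rests on the few early counts and was 5.32 without early replicate 3. Tgfb3 was not called between BEC and full (0.19, SE 0.18, edgeR adjusted p 0.572). The opposite strand of the Tgfb3 locus carries Ttll5, with means from 16.8 CPM in early to 30.8 CPM in BEC. Whether counting used strand is not given in the sources used here, so the reads of the 2 genes may not be fully separated.

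The make-up of the TGF-beta ligand pool was compared within each library as CPM per kilobase of exon, a share that no scaling of libraries alters. Tgfb3 made up 3.16% ± 2.46 of the pool in early, 15.6% ± 3.78 in intermediate, 35.3% ± 2.04 in full, and its BEC share was 47.6% ± 1.28 (SD, n = 3). Over the same groups Tgfb2 held 75.5% ± 6.37, 65.1% ± 7.55, 51.0% ± 4.57 and 42.6% ± 0.795. Tgfb1 held 21.4% ± 4.26, 19.3% ± 4.22, 13.7% ± 2.59 and 9.73% ± 0.668. The Tgfb3 shares of the 4 groups did not overlap in any pair. The early share of Tgfb3 rests on 1, 6 and 10 counts and had a mean of 2.03% without early replicate 3. With the longest transcript as gene length, the mean Tgfb3 shares were 2.40%, 12.3%, 29.4% and 41.4%, and those of Tgfb1 were 32.0%, 29.7%, 22.3% and 16.6%. With that length the BEC mean of Tgfb2 (42.0%) stood above that of Tgfb3, the reverse of the order with exon unions.

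**Figure D2:**
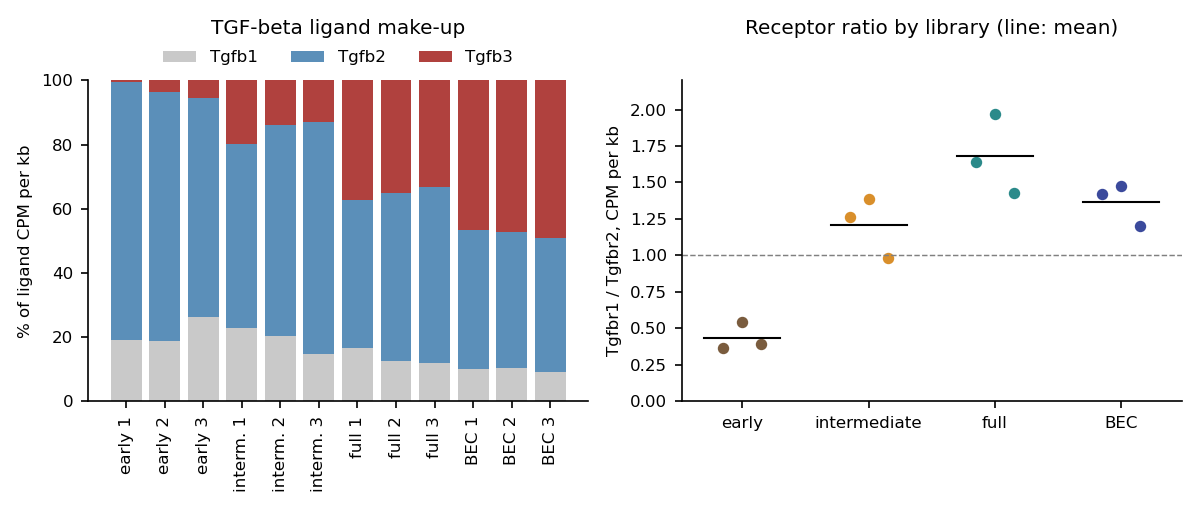
Left, the percent of TGF-beta ligand CPM per kilobase contributed by Tgfb1, Tgfb2 and Tgfb3 in each of the 12 libraries (stacked bars, 0 to 100%). Right, the ratio of Tgfbr1 to Tgfbr2 in CPM per kilobase by library (points, line at the group mean, dashed line at 1). The Tgfb3 share was 0.555% to 5.44% in early and 46.5% to 49.0% in BEC.

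Bmp4 departed from the course of the TGF-beta ligands, and Bmp2 ran closer to it. Over the 12 libraries, Pearson's r of log2 CPM with Tgfb3 was 0.41 for Bmp4 and 0.86 for Bmp2. Bmp4, a ligand used widely in development, was at 5.62, 5.27 and 5.10 CPM in early, 23.6, 23.2 and 27.9 in intermediate, 14.6, 10.3 and 14.5 in full, and 6.70, 7.22 and 8.77 in BEC. The 4 groups did not overlap, with intermediate at the top. It rose at the first step (log2 fold change 2.22, SE 0.17, edgeR adjusted p 1.84e-07), then fell by 0.92 from intermediate to full (SE 0.16, edgeR adjusted p 0.000363) and was lower again in BEC than in full (-0.79, SE 0.16, edgeR adjusted p 0.00275). BEC remained above early (0.50, SE 0.18, edgeR adjusted p 0.0202). That last call was not made without early replicate 3 (0.47, adjusted p 0.0567), without BEC replicate 3 (0.39, adjusted p 0.0871) or with only the 6 libraries compared (0.46, adjusted p 0.0688). An antisense gene that overlaps Bmp4, Gm15222, had means of 1.08, 3.20, 2.95 and 2.51 CPM, so a part of the Bmp4 counts is uncertain.

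Bmp2 was the least abundant of the 5 ligands in full and BEC by CPM per kilobase, at 2.32 and 1.95. Its levels were 2.14, 1.73 and 3.399 CPM in early, 3.58, 5.26 and 4.59 in intermediate, 5.49, 8.96 and 10.3 in full, and 4.34, 7.32 and 9.18 in BEC. Early lay below the other groups, but replicates within full and BEC were spread widely. The first step missed the threshold (0.88, SE 0.36, edgeR adjusted p 0.0504). It passed with the replicate number as a block (0.89, edgeR adjusted p 0.00787), with DESeq2 (0.83, adjusted p 0.0401), with no filter beyond 1 count (0.92, adjusted p 0.00805), with total counts (1.54, adjusted p 0.00174), with only the 6 libraries compared (0.89, adjusted p 0.0448), without early replicate 3 (1.21, adjusted p 0.0235) and without intermediate replicate 1 (1.02, adjusted p 0.042). From intermediate to full Bmp2 rose (0.88, SE 0.32, edgeR adjusted p 0.0397). This call was lost without intermediate replicate 1 (0.74, adjusted p 0.118), 2 (1.00469, adjusted p 0.0573) or 3 (0.88, adjusted p 0.0884) and without full replicate 2 (0.81, adjusted p 0.11) or 3 (0.69, adjusted p 0.152). BEC did not pass the test against full (-0.25, edgeR adjusted p 0.663) or intermediate (0.63, edgeR adjusted p 0.113). The difference from intermediate was called with total counts (0.83, edgeR adjusted p 0.0411) and with the replicate number as a block (0.59, edgeR adjusted p 0.0308). It was also called without BEC replicate 1 (0.88, edgeR adjusted p 0.0307).

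The 2 TGF-beta receptors moved in opposite directions at the first step. Tgfbr1, the type I receptor kinase, was at 65.4, 73.5 and 67.4 CPM in early, 142, 156 and 118 in intermediate, 134, 145 and 107 in full, and 128, 128 and 114 in BEC. Early libraries were below all 9 others, and the 3 other groups overlapped one another. Tgfbr1 rose at the first step (1.01, SE 0.13, edgeR adjusted p 1.36e-05). It was not called from intermediate to full (-0.11, edgeR adjusted p 0.526) or in BEC against full (-0.06, edgeR adjusted p 0.8). The difference of full against intermediate changed sign with total counts (0.09) and without full replicate 3 (0.01). That of BEC against full changed sign without full replicate 2 (0.03).

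Tgfbr2, the type II receptor that binds the ligand first, was at 225, 169 and 216 CPM in early, 141, 141 and 150.1 in intermediate, 102, 92.0 and 94.0 in full, and 112, 109 and 118 in BEC. Early was highest and full lowest, with no overlap between any 2 groups. On TMM factors it fell by 0.50 at the first step (SE 0.10, edgeR adjusted p 0.00106) and by 0.58 at the second (SE 0.10, edgeR adjusted p 0.000538). BEC was 0.24 above full without passing the test (SE 0.10, edgeR adjusted p 0.14). The sign of the first step turned with total counts only (0.16, edgeR adjusted p 0.167), while the median of all genes moved from 0.06 to 0.72 in that setting, so Tgfbr2 stayed below the median gene. The ratio of Tgfbr1 to Tgfbr2 in CPM per kilobase needs no scaling. It was 0.434 ± 0.0979 in early, 1.21 ± 0.206 in intermediate, 1.68 ± 0.274 in full, and the BEC ratio was 1.37 ± 0.146 (SD, n = 3). Early libraries ran from 0.365 to 0.546, and intermediate libraries ran from 0.984 to 1.38.

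Smad6 and Smad7 encode inhibitory Smads, of which Smad6 acts mainly on BMP receptors and Smad7 also on the TGF-beta receptor. Neither was called between early and intermediate, and both were higher in full. Smad6 was at 11.2, 9.64 and 11.4 CPM in early, 12.01, 10.8 and 11.1 in intermediate, 22.1, 24.9 and 23.0 in full, and 22.4, 26.9 and 32.3 in BEC. The first 2 groups overlapped, as did the last 2, and every library of the last 2 lay above every library of the first 2. From intermediate to full it rose by 1.05 on the log2 scale (SE 0.14, edgeR adjusted p 4.11e-05). The other steps were not called (0.07 with edgeR adjusted p 0.722, and 0.22 with edgeR adjusted p 0.291).

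Smad7 was at 38.9, 49.3 and 40.8 CPM in early, 44.4, 46.4 and 47.2 in intermediate, 70.7, 74.7 and 61.4 in full, and 66.3, 97.6 and 107 in BEC. Full and BEC libraries lay above all early and intermediate ones. It rose by 0.58 from intermediate to full (SE 0.15, edgeR adjusted p 0.00759), and the first step was 0.10 (SE 0.16, edgeR adjusted p 0.618). BEC against full missed the threshold (0.39, SE 0.15, edgeR adjusted p 0.0874) and passed it without BEC replicate 1 (0.57, adjusted p 0.0035). With total counts the first step was called for both genes, at 0.73 for Smad6 (edgeR adjusted p 0.000583) and 0.76 for Smad7 (edgeR adjusted p 0.000703), beside a median of 0.72 over all genes in that setting.

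Id1 encodes an inhibitor of basic helix-loop-helix factors and is a direct target of BMP Smads. It was at 46.6, 85.7 and 74.4 CPM in early, 41.6, 38.6 and 26.5 in intermediate, 52.7, 36.4 and 32.4 in full, and 108, 95.7 and 96.9 in BEC. Every BEC library was above every other library, and early and full overlapped. Id1 fell by 0.95 at the first step (SE 0.23, edgeR adjusted p 0.0029), a call lost with total counts (-0.29, edgeR adjusted p 0.278). It was not called from intermediate to full (0.19, edgeR adjusted p 0.542), where the sign turned without full replicate 1 (-0.05). BEC exceeded full by 1.31 (SE 0.22, edgeR adjusted p 0.000768), and this was the only one of the 10 genes called higher in BEC than in full. Full was below early by 0.76 on TMM factors (edgeR adjusted p 0.00774), and total counts turned the sign (0.10, edgeR adjusted p 0.695).

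**Figure D3:**
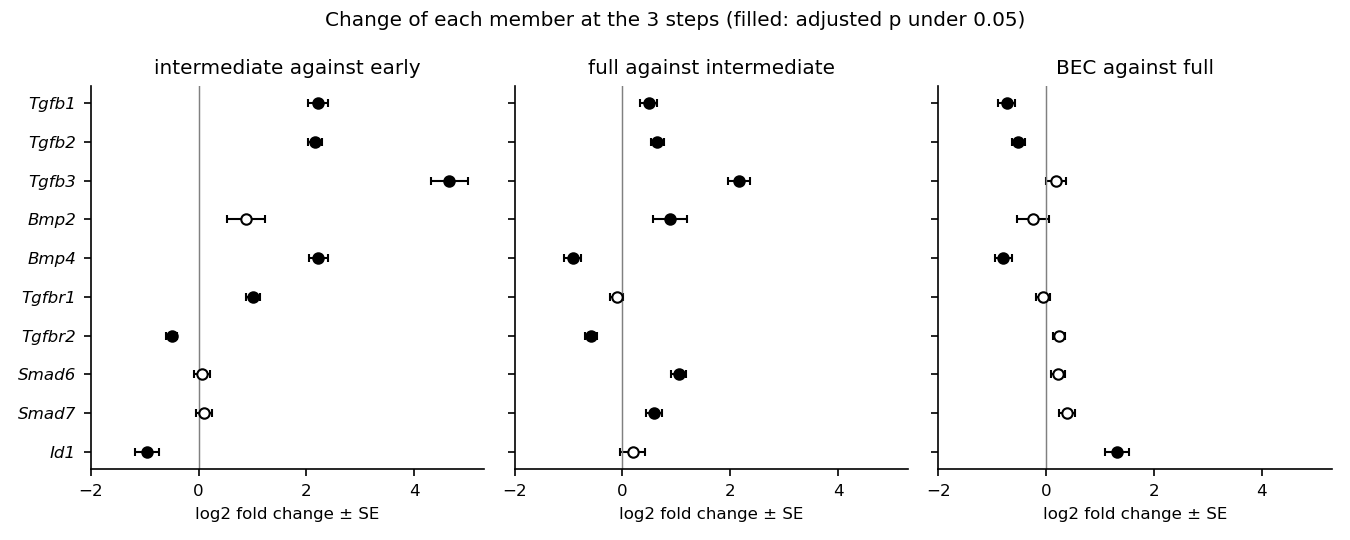
Log2 fold change (x axis, error bars 1 SE) of each gene at the 3 steps from edgeR on TMM factors, with filled points for an adjusted p under 0.05. Values ran from -0.95 (Id1) to 4.65 (Tgfb3) at the first step, and 3 of the 4 filled points of the last panel (Tgfb1, Tgfb2, Bmp4) are below 0. With total counts the first-step value of Tgfbr2 changes sign (0.16).

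Over longer distances all 10 genes were called between full and early (71.2% of all genes), 8 higher in full (39.1%) and 2 lower (32.1%). Between BEC and early all 10 were called as well (73.1%), 9 higher in BEC (40.0%) and 1, Tgfbr2, lower (33.0%). The 2 comparisons share the early libraries. Tgfb3 differed most, with fitted log2 fold changes of 6.81 for full and 7.0 for BEC. These rest on the few early counts and were 7.48 and 7.66 without early replicate 3. Id1 was the gene whose direction differed on TMM factors, below early in full and above it in BEC (0.54, SE 0.22, edgeR adjusted p 0.0413). The second value was not called without early replicate 1 (0.32, adjusted p 0.168), early replicate 3 (0.60, adjusted p 0.0545), BEC replicate 1 (0.49, adjusted p 0.106), BEC replicate 2 (0.58, adjusted p 0.0609) or BEC replicate 3 (0.57, adjusted p 0.0613). With total counts Id1 was above early in both, at 0.10 for full (edgeR adjusted p 0.695) and 1.41 for BEC (edgeR adjusted p 5.98e-05). For Tgfbr2, total counts gave -0.22 for full (adjusted p 0.0674) and 0.02 for BEC (adjusted p 0.849), in place of -1.08 and -0.85. Between BEC and intermediate, 6 of the 10 were called (52.4% of all genes). Those were Tgfb3 (2.35), Bmp4 (-1.72), Tgfbr2 (-0.35), Smad6 (1.27), Smad7 (0.97) and Id1 (1.495). Of these, Tgfbr2 lost its call without BEC replicate 2 (-0.32, edgeR adjusted p 0.0501) and with total counts (-0.14, adjusted p 0.259).

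Within the 10, correlations of log2 CPM over the 12 libraries describe how the courses relate. They share the 4 groups and the scaling of each library. Pearson's r was 0.95 between Tgfb1 and Tgfb2, 0.94 between Tgfb2 and Tgfb3, and 0.93 between Smad6 and Smad7. Tgfbr2 ran against Tgfb3 (-0.93) and Tgfb2 (-0.91). Id1 had its strongest correlation with Bmp4, and that was negative (-0.74). Among 11268 other genes with a mean of at least 5 CPM, those most like Tgfb3 were Igsf3 and Adamts9 (both r = 0.998), those most like Tgfb2 were Trrap (0.997) and Ttc3 (0.993), and those most like Tgfb1 were Stard9 and Qpct (both 0.991). The closest genes to Bmp4 were Ust (0.965) and Gimd1 (0.950), and to Id1 Susd6 (0.942) and Mpzl3 (0.934).

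The other genes of the pathway were read from a list of 108 symbols grouped by role, the 10 included, of which 84 had enough counts. The list was chosen with earlier results of these data known, so its shares beside those of all genes are no test of the pathway. Between intermediate and early, 54 of the 84 were called, 37 higher and 17 lower (64.3% called, against 54.4% of all genes, 28.7% higher and 25.7% lower). The median log2 fold change was 0.32 against 0.06 for all genes. From intermediate to full, 52 were called, 34 higher and 18 lower (61.9% called, against 40.7% of all genes, 20.8% higher and 19.8% lower). Between BEC and full, 31 were called, 16 higher and 15 lower (36.9% called, against 21.3% of all genes). With total counts the first 2 splits became 53 higher and 10 lower, and 43 higher and 14 lower. All genes tilted the same way in that setting, with 9626 of the 16210 higher and 1623 lower at the first step, and 5236 higher and 1976 lower at the second.

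By role, the median log2 fold changes of the first step were 0.91 for 19 ligands, 1.52 for 14 genes of ligand storage and activation, 0.14 for 9 receptors, 1.17 for 5 co-receptors, 0.42 for 6 signalling Smads, 0.39 for 18 inhibitors and -1.02 for 13 target genes. Of the ligands 10 were higher and 3 lower, and of the targets 1 was higher and 8 were lower, where 28.7% of all genes were higher and 25.7% lower. Ccn2, a matricellular protein gene that TGF-beta and YAP both induce, was the higher target (4.90, SE 0.21, edgeR adjusted p 1.22e-09), going from 8.62 ± 2.55 to 256 ± 38.7 CPM (SD, n = 3). The target list does not hold every target, and Smad6 and Pmepa1 are counted with the inhibitors. At this step Smad6 was not called (0.07, edgeR adjusted p 0.722) and Pmepa1 was higher (1.62, edgeR adjusted p 9.56e-06). Members of the target list that fell include Hamp, which encodes hepcidin, from 1161 ± 148 to 96.0 ± 3.68 CPM (-3.60, SE 0.28, edgeR adjusted p 1.61e-07). Its near copy Hamp2 fell as well (-3.14, SE 0.62, and -3.74 without intermediate replicate 2), and counts of the pair are uncertain where reads match both. The Id1 paralogs Id3 (-1.10, edgeR adjusted p 5.71e-05) and Id4 (-2.82, edgeR adjusted p 0.00314, and -3.43 without intermediate replicate 2) were lower in intermediate too. Id2, another paralog, was not called at the first step (-0.38, edgeR adjusted p 0.106) or the second (0.37, edgeR adjusted p 0.134), with overlapping replicates in both. With the replicate number as a block its first step passed (-0.41, edgeR adjusted p 0.03), and total counts turned the sign (0.29). Its second was called with total counts (0.57, edgeR adjusted p 0.0252) and with no filter beyond 1 count (0.38, edgeR adjusted p 0.0277). From intermediate to full Id3 fell again (-0.70, edgeR adjusted p 0.00338). Id4, then under 1 CPM, was called lower as well (-2.65, edgeR adjusted p 0.0429), a call lost with total counts (adjusted p 0.056), without intermediate replicate 2 (-2.05, adjusted p 0.189) or 3 (adjusted p 0.111), and without full replicate 1 (adjusted p 0.0897), 2 (adjusted p 0.126) or 3 (adjusted p 0.0895). Hjv, the BMP co-receptor hemojuvelin that hepatocytes use for hepcidin control, fell by 3.28 (SE 0.23, edgeR adjusted p 7.31e-08). Of the 5 co-receptors tested 3 were called at this step, a share of 60% near the 54.4% of all genes. The others called, Rgma and Rgmb, of the same repulsive guidance molecule family as Hjv, were higher (4.65 and 1.39, edgeR adjusted p 4.28e-06 and 5.79e-05). Every early library was at or under the floor of 3 counts for Rgma, so its fitted value is no firm size, and it was 5.92 without early replicate 3. The hepatocyte markers fell in the same comparison (7 of 7 called lower, against 25.7% of all genes). Their part in the fall of Hamp and Hjv was not tested.

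Of the 14 genes that store and activate latent TGF-beta, 10 were called at the first step (8 higher, 2 lower), 9 at the second (7 higher, 2 lower) and 7 between BEC and full (5 higher, 2 lower). The shares of all genes called at these steps were 54.4%, 40.7% and 21.3%. Itgb8, an integrin subunit that releases active TGF-beta, had means of 0.742 ± 0.177, 40.8 ± 4.44, 96.9 ± 18.4 and 146 ± 13.0 CPM from early to BEC (SD, n = 3; first step 5.75, SE 0.22, edgeR adjusted p 5.28e-10). Thbs1, thrombospondin 1, an activator of latent TGF-beta, was 5.02 higher in intermediate (SE 0.72, edgeR adjusted p 5.09e-05) with wide replicates, and 4.39 higher without intermediate replicate 3. Ltbp3, a latent TGF-beta binding protein gene, rose by 4.52 (SE 0.28, edgeR adjusted p 2.25e-08). Itgb6, another of the integrin subunits on that list, was near 0 in early and at 0.318 ± 0.295 CPM in intermediate. It was at 12.4 ± 4.30 CPM in full and 114 ± 15.7 in BEC. Itgb6 was higher in BEC than in full by 3.20 (SE 0.24, edgeR adjusted p 6.12e-07). Ltbp1 was higher and Ltbp4 lower in BEC than in full (1.98 and -1.87, edgeR adjusted p 0.000122 and 0.000127).

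Of the 19 ligands tested, 13 were called from intermediate to full (9 higher, 4 lower) and 12 between BEC and full (4 higher, 8 lower), against 40.7% and 21.3% of all genes. From intermediate to full, the inhibin subunit Inha rose from 0.661 ± 0.376 to 11.0 ± 1.39 CPM and Inhbb from 2.698 ± 1.29 to 15.6 ± 3.92 (edgeR adjusted p 1.75e-06 and 6.04e-06), while the hepatocyte activin gene Inhbc fell from 18.7 ± 7.08 to 2.28 ± 1.01 (edgeR adjusted p 2.52e-05). Gdf15, a stress-induced ligand, fell from 111 ± 41.4 to 23.2 ± 11.1 CPM (edgeR adjusted p 0.000635). Inhba was high in full at 231 ± 88.5 CPM and at 41.6 ± 15.5 in BEC (-2.48, SE 0.43, edgeR adjusted p 0.000863). Lefty1, an antagonist of Nodal, was higher in BEC than in full (1.89, SE 0.40, edgeR adjusted p 0.00356).

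At the first step 5 of 9 receptors (4 higher, 1 lower) and 5 of 6 signalling Smads (4 higher, 1 lower) were called, where 54.4% of all genes were, so the receptors' share of 55.6% was near the background. Between BEC and full, 1 of the 9 and 1 of the 6 were called (11.1% and 16.7%), where 21.3% of all genes were. Bmpr1a and Bmpr2, a type I and a type II BMP receptor, rose at the first step (0.79 and 0.66, edgeR adjusted p 1.39e-05 and 0.000349) and the second (0.39 and 0.48, edgeR adjusted p 0.00498 and 0.00435). Acvrl1, a type I receptor best known from endothelium, rose from 0.924 ± 0.292 CPM in intermediate to 8.55 ± 1.11 in full (3.20, SE 0.28, edgeR adjusted p 1.21e-06). Of the 8 endothelial markers tested in the same comparison, 0 were called higher and 3 lower, where 20.8% and 19.8% of all genes were. The part of these markers in this rise was not tested. Smad3 rose at the first step (1.07, SE 0.12, edgeR adjusted p 7.31e-06). Smad9 was lower in intermediate than in early, in full than in intermediate and in BEC than in full. The values were -1.20, -1.83 and -2.09 (edgeR adjusted p 0.00322, 0.000384 and 0.00164), the first not called with total counts (-0.54, adjusted p 0.116).

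Of the 18 inhibitors tested, 9 were called at the first step (8 higher, 1 lower), a share of 50% near the 54.4% of all genes. At the second step 13 were called (10 higher, 3 lower) and between BEC and full 5 (3 higher, 2 lower), which is 72.2% against 40.7% of all genes and 27.8% against 21.3%. Fst, follistatin, an activin trap, was at 44.7 ± 4.20 CPM in full and 6.18 ± 1.30 in BEC (-2.86, SE 0.26, edgeR adjusted p 3.27e-06). Chrd, chordin, a BMP trap, was at 10.7 ± 1.35 and 2.07 ± 0.487 CPM (-2.37, SE 0.18, edgeR adjusted p 8.12e-07). Pmepa1, a TGF-beta target that restrains Smad signalling, was higher in BEC (1.55, SE 0.17, edgeR adjusted p 1.55e-05).

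**Figure D4:**
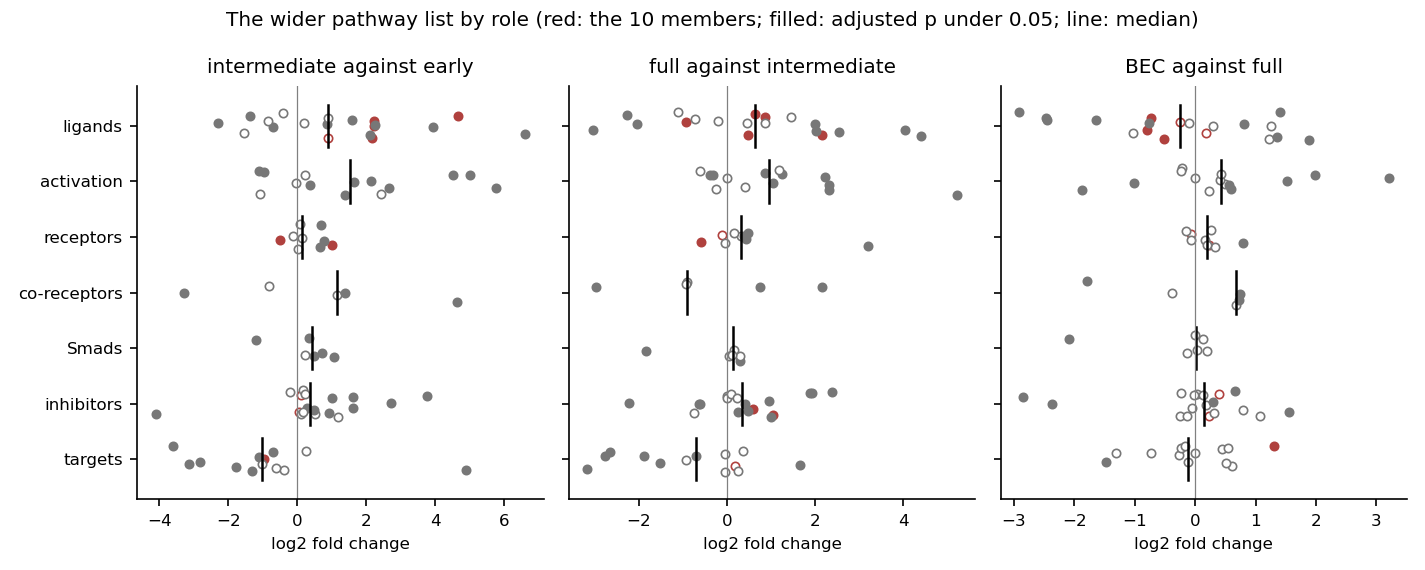
Log2 fold change (x axis) of the 84 tested genes of the wider pathway list at the 3 steps, in rows by role, with the 10 genes of interest in red, filled points for an adjusted p under 0.05 and a black line at each median. At the first step the ligand median was 0.91 and the target median -1.02 on TMM factors.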

How the data were processed

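RNA was sequenced from 12 libraries of cells sorted from DDC-fed mouse livers, grouped by sample title. The authors deposited raw counts per gene symbol, made with STAR 2.7.10b and featureCounts 2.0.1 on GRCm39, per the submitters' processing notes. The annotation, the use of strand and the handling of multi-mapping reads are not given in the sources used here. A deposited table of size-factor-scaled counts was not used. All rows had a gene name, and all 12 columns were matched to a sample.

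Genes were filtered by filterByExpr (R 4.3.3, edgeR 4.0.16), scaled by TMM and fitted in a single model with a term per group. Pairs were compared by the quasi-likelihood test, with Benjamini-Hochberg adjustment over the 16210 genes tested and calls under 0.05. The SE is the log2 fold change over the root of F. The common biological coefficient of variation was 14.8%. DESeq2 1.42.0, other scalings and filters, a replicate block, fits of 6 libraries and each library left out were alternatives. Log2 CPM used a prior count of 2. The floor of 3 counts equals 0.128 to 0.273 CPM and covers counting error only.

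The 10 members and all lists were chosen with earlier results of these data known. In the wider list the rule named, per step and direction, the 4 called genes with the largest change, at least 5 CPM and no overlap of replicates. A gene that the rule names is not reported here. Id2, Id3, Id4, Smad3, Smad9, Bmpr1a, Bmpr2, Rgma and Rgmb were named after their values were seen. Lengths are exon unions of GENCODE M21, which is on GRCm38, as are the RefSeq promoters, so no other coordinates are given.

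Same-numbered libraries deviated together from their group means, with r across genes of at least 0.121 in each pair of the 3 adjacent steps. In the wider comparisons r went down to 0.0442, for replicate 2 of BEC against early. Differently numbered libraries were not set beside these, so whether the numbers pair the libraries was not settled. What the numbers mark is not stated, and the main fit has no term for them. Replicates differed beyond counting error (chi-square per degree of freedom from 4.95 to 52.1). Figures used Python 3.11.15 and matplotlib 3.10.9.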

Additional observations from a re-analysis of the deposited data

How the results depend on the processing

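Under every alternative, the number of the 10 genes called, of the 84 listed pathway genes called and of all genes called stayed within 1.5 times its value in each of the 6 comparisons and among the 4 groups. Leaving out 1 library gave 7 to 8 of the 10 for intermediate against early, 6 to 7 for full against intermediate and 4 to 5 for BEC against full. For all genes the counts were 8123 to 8478, 5276 to 6143 and 2644 to 2970. For BEC against early 8 to 10 of the 10 were called (11438 to 11682 of all genes). For BEC against intermediate 5 to 7 were called (7604 to 8085 of all genes). The setting that moved directions was total counts without TMM factors. It turned the sign of Tgfbr2 at the first step (0.165) and in BEC against early (0.0218), of Id1 in full against early (0.0990), of Id2 at the first step (0.287), and of Tgfbr1 from intermediate to full (0.0943) and in BEC against intermediate (0.0328), none past the threshold, and gave 8 higher and 0 lower of the 10 at the first step, where 9626 of all genes were higher and 1623 lower. The medians of all genes moved to 0.72 and 0.21 at the first 2 steps, to 1.005 and 1.004 in full and BEC against early, and to 0.20 in BEC against intermediate. Leaving out 1 library turned 5 values that were not called. The ranges were -0.00918 to 0.116 for Smad6 at the first step, -0.219 to 0.00842 for Tgfbr1 and -0.0468 to 0.326 for Id1 from intermediate to full, and -0.50 to 0.000892 for Bmp2 and -0.179 to 0.0288 for Tgfbr1 in BEC against full. The cause of these changes was not tested.

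With the replicate block, 8 of the 10 were called at the first step, 8 at the second and 4 between BEC and full, and the pathway counts were 61, 57 and 39. The number of all genes called was higher with the block as well, at 9274, 7300 and 4096 in place of 8817, 6590 and 3445. Of the 10 genes the block changed 2 calls, both of Bmp2: at the first step (0.89, edgeR adjusted p 0.00787) and in BEC against intermediate (0.59, edgeR adjusted p 0.0308), where 1 pair of same-numbered libraries had r = 0.0839. Among the other genes named it changed 1 call, that of Id2 at the first step (-0.41, edgeR adjusted p 0.03).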
